A study of Mus musculus with 6 samples.

Results

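The 10 genes described here encode the transcription factors that form the core of the cardiac gene program: the homeobox factor Nkx2-5, the zinc finger factors Gata4, Gata5 and Gata6, the T-box factors Tbx5 and Tbx20, the basic helix-loop-helix factors Hand1 and Hand2, and the MADS-box factors Mef2a and Mef2c. They were chosen by name, as the transcript clusters whose single annotated gene symbol is one of these, and not by their values. Each of the 10 had 1 such cluster, out of 19933 genes named on the array. Hearts labelled KO for β1 integrin (Itgb1) were set against hearts labelled wild type (WT), all at E12.5, with 3 hearts per genotype and 1 Affymetrix Mouse Gene 1.0 ST array per heart. The design text calls them biological replicates. The allele, the promoter or cell type of any Cre, the strain and whether hearts were pooled are not stated in the labels, and a heart below means 1 sample.

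As background, these factors bind DNA in combination. NKX2-5, GATA4 and TBX5 act on shared enhancers of contractile and natriuretic peptide genes, MEF2 factors drive muscle genes and are held back by class IIa histone deacetylases, and HAND1 and HAND2 are needed for growth of the left and right ventricle. GATA4, GATA5, GATA6, TBX20 and HAND2 are also made in endocardium or in cushion mesenchyme, the precursor of the valves, so that a whole-heart array reads several cell types at once. In such bulk RNA, fewer cells of a type and less RNA per cell cannot be told apart.

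All values are deposited log2 signals from RMA, on which a step of 1 is a doubling of signal. Array medians lay between 6.65 and 6.71. Cardiomyocyte markers were bright, with list means of 12.65 to 12.78 in KO and 12.79 to 12.83 in WT hearts. Itgb1 itself was 11.53, 11.42 and 11.65 in KO hearts and 11.76, 11.80 and 11.78 in WT hearts, and whether its probes lie in the deleted part is not given. KO replicate 1 stood apart in erythroid markers, whose mean lay 1.33 above the WT mean in this heart. No cluster passed limma's test (0 of 28767 at a Benjamini-Hochberg adjusted p of 0.05, smallest adjusted p = 0.601), while 1705 had an unadjusted p under 0.05. No direction below is therefore a called change.

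None of the 10 factors differed between KO and WT hearts by limma's test, in which 0% of all clusters were called. At an unadjusted p under 0.05 there were 0 of 10 members, against 5.93% of all clusters. Of the 10, 6 were higher and 4 lower in KO by their means, where 46.5% of all clusters were higher and 53.5% lower, and 42.8% of those at or above the median level were higher. The median difference was 0.04 for the factors and -0.01 for all clusters, and the median absolute difference was 0.10 against 0.09. Every one of the 10 lay above the median level of all clusters, 6.67. The 95% intervals of the differences reached no lower than 0.683 of the WT signal (Gata5) and no higher than 1.39 times it (Gata6).

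The KO and WT values did not overlap for 4 of the 10 factors, against 12.6% of all clusters and 13.8% of those at or above the median level. These were Nkx2-5 and Hand2, below all WT hearts (6.61% of clusters), and Mef2a and Mef2c, above them (6.01%). With 3 hearts against 3, the two-sided exact permutation p of such a gene is 0.1, the smallest this design allows. After quantile normalization again or cyclic loess, Hand2 and Mef2a overlapped, which left Nkx2-5 and Mef2c, against 13.5% of all clusters under either scaling. With array medians centred, Gata6 joined the 4. Without KO replicate 1 the count was also 4, where 20.5% of all clusters did not overlap.

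**Figure D1:**
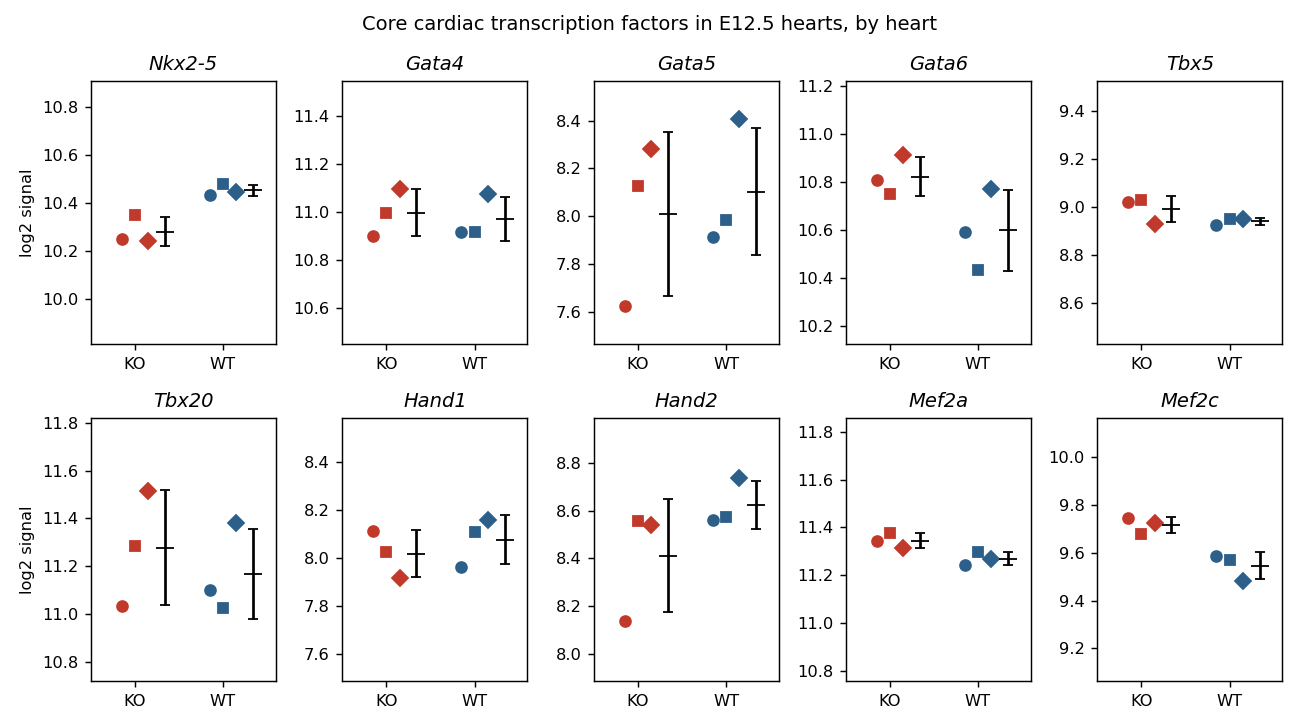
Log2 signal of each factor by heart, KO (red) left of WT (blue), with circles, squares and diamonds for replicates 1, 2 and 3 and bars for mean ± SD (n = 3 each). Every panel spans the same height in log2 units, with its own level. Nkx2-5 and Mef2c show groups that lie apart, while Gata5 and Tbx20 spread widely within both groups.

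Nkx2-5 is an early homeobox marker of cardiac progenitors and is required for ventricular gene expression. Its signal was 10.25, 10.35 and 10.24 in KO hearts, against 10.43, 10.48 and 10.45 in WT hearts. All 3 KO hearts lay under the lowest WT heart. The means were 10.28 ± 0.06 in KO and 10.45 ± 0.02 in WT (SD, n = 3 each), which leaves 88.7% of the WT signal. The difference was -0.17 ± 0.08 (log2, SE) with a 95% interval of -0.36 to 0.01, and limma's adjusted p was 0.797. Over the 15 alternative settings it ranged from -0.21 to -0.13.

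Mef2c is needed for outflow and right ventricular growth, and Mef2a is the family member that predominates in postnatal cardiac muscle. Mef2c stood at 9.75, 9.68 and 9.72 in KO hearts and at 9.59, 9.57 and 9.48 in WT hearts. The KO hearts lay close together and all above the WT hearts. Its difference was 0.17 ± 0.08 (log2, SE; 95% interval -0.01 to 0.36; limma adjusted p = 0.797), or 1.13 times the WT signal, and it ranged from 0.14 to 0.20 over the alternatives. Mef2a was 11.34, 11.38 and 11.31 in KO hearts, against 11.24, 11.30 and 11.27 in WT hearts. The groups lay 0.015 apart at their nearest hearts, and the difference was 0.08 ± 0.08 (log2, SE; adjusted p = 0.865). Mef2d, another widely expressed member, differed by 0.09 ± 0.14 in its brighter cluster and by -0.11 ± 0.11 in its other one, and the first turned to -0.05 without KO replicate 1.

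The GATA factors did not differ in a shared direction. Gata6, which cooperates with Gata4 in myocardium and outflow tract, was 10.81, 10.75 and 10.91 in KO hearts and 10.59, 10.43 and 10.77 in WT hearts. The highest WT heart lay just above the lowest KO heart. Its difference of 0.22 ± 0.11 (log2, SE; 95% interval -0.03 to 0.48; limma adjusted p = 0.797) was the largest in size among the 10, at 1.17 times the WT signal. It was 0.14 without WT replicate 2 and 0.31 without WT replicate 3, the lowest and highest values over the alternatives.

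Gata4, which binds the promoters of many cardiac structural genes, was 10.90, 11.00 and 11.10 in KO hearts and 10.92, 10.92 and 11.08 in WT hearts. The groups covered the same range, and the difference was 0.03 ± 0.09 (log2, SE) with a 95% interval of -0.19 to 0.25, or 0.876 to 1.19 times the WT signal. Gata5, the member most tied to endocardium, was 7.62, 8.13 and 8.28 in KO hearts, against 7.92, 7.99 and 8.41 in WT hearts. KO replicate 1 was the lowest of the 6, and the difference of -0.09 ± 0.20 (log2, SE) became 0.10 without that heart. It was also 0.06 without WT replicate 3 and 0.05 with array weights, in which KO replicate 2 counted most. Its neighbour Gata5os, a noncoding RNA gene, differed by 0.00 ± 0.14.

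Tbx5 acts in atria and left ventricle and partners Nkx2-5 and Gata4. It was 9.02, 9.03 and 8.93 in KO hearts and 8.93, 8.95 and 8.95 in WT hearts. The lowest KO heart lay among the WT hearts, and the difference was 0.05 ± 0.08 (log2, SE; 95% interval -0.13 to 0.23). Tbx20, needed for chamber growth and made in both myocardium and cushions, was 11.04, 11.28 and 11.52 in KO hearts and 11.10, 11.03 and 11.38 in WT hearts. Replicate 3 was the highest of each group. The difference of 0.11 ± 0.15 (log2, SE) was 0.23 without KO replicate 1 and -0.01 without KO replicate 3.

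Hand2 marks the right ventricle, outflow tract and endocardium. It was 8.14, 8.557 and 8.540 in KO hearts, against 8.561, 8.572 and 8.74 in WT hearts. KO replicate 1 lay far below the rest, while the other two KO hearts lay under the lowest WT heart by 0.004 or somewhat more. The difference of -0.21 ± 0.13 (log2, SE; limma adjusted p = 0.797) left 86.4% of the WT signal, and it was -0.07 without KO replicate 1. Hand1, found mainly in the outer curvature of the left ventricle, was 8.11, 8.03 and 7.92 in KO hearts and 7.96, 8.11 and 8.16 in WT hearts. The groups overlapped, with a difference of -0.06 ± 0.10 (log2, SE; 95% interval -0.28 to 0.16).

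**Figure D2:**
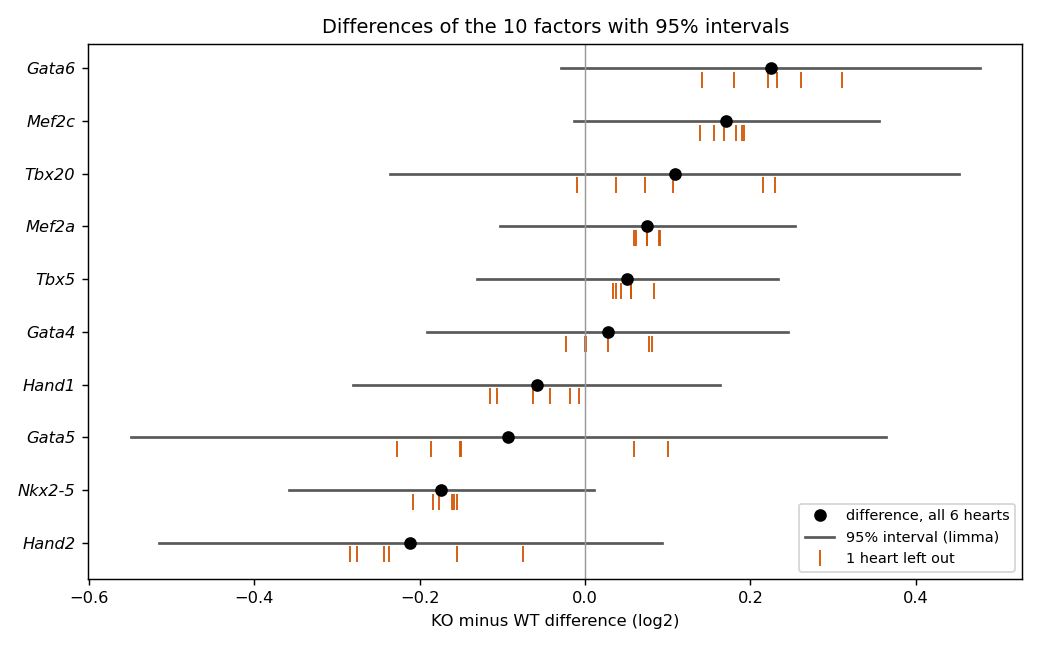
KO minus WT difference of each factor on the log2 scale (dots), with limma's 95% interval (lines) and the 6 values with 1 heart left out (orange ticks). All 10 intervals include 0. The ticks of Gata5, Tbx20 and Gata4 fall on both sides of 0. Those of the other 7 factors stay on 1 side, with Hand1 reaching -0.007.

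Sequences before the start sites are shown for Hand2, Nkx2-5, Mef2c and Mef2a, the 4 genes whose groups did not overlap in the deposited values, with searches for sites that the factors' own families bind. They are the 250 bases before the start, from RefSeq on GRCm38.p6, in a table that held 6 of the 10 genes with 8 start sites. Capitals mark matches on either strand to a GATA site (TGATAA, or with another last base TGATAG, and the same with A as first base, AGATAA or else AGATAG), an NKX2-5 site (TNAAGTG), a T-box core (AGGTGT) or an E-box (CANNTG). The MEF2 site and the CArG box of serum response factor were searched by their consensus. Hand2 lies at chr8:57320733-57320982 on the plus strand, Nkx2-5 at chr17:26841566-26841815 on the minus strand, the second of 3 Mef2c starts, chosen as it holds the T-box match, at chr13:83523406-83523655 on the plus strand, and Mef2a at chr7:67372859-67373108 on the minus strand.
Hand2: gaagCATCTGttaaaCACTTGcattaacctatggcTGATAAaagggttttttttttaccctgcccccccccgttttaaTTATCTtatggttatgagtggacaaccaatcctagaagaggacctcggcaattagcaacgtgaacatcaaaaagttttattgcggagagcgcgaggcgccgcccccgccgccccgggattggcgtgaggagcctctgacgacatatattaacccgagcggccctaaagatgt
Nkx2-5: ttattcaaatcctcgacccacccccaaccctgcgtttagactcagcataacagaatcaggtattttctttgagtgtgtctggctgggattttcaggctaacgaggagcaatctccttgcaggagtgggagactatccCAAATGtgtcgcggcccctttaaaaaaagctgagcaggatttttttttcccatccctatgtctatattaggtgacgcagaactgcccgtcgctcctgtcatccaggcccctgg
Mef2c: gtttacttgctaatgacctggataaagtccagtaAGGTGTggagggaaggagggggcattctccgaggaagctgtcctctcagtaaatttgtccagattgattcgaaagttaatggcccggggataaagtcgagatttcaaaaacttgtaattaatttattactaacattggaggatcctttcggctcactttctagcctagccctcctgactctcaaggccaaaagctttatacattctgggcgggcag
Mef2a: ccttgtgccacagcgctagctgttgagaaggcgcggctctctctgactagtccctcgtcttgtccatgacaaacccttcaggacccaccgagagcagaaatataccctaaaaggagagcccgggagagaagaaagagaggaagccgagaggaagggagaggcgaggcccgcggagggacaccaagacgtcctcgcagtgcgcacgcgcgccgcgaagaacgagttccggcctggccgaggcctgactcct

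The Hand2 stretch held 2 GATA sites, whose first bases lay 215 and 172 bases before the start, where 26.5% of 32851 mouse promoters held at least 1. It also held 2 E-boxes, which 66.2% of promoters had. Nkx2-5 had 1 E-box. The Mef2c start shown had 1 T-box core, for which it was picked out of 3 starts. Its match was thus fixed by that choice and cannot be set against the 11.8% of single promoters that held this core. The first and the third Mef2c start held 2 and 1 E-boxes and no other match, and the Mef2a stretch held none of the 6 motifs. No member's stretch held the NKX2-5 site, the MEF2 site or the CArG box, which 10.1%, 2.92% and 1.47% of promoters had. These are letter matches and not measured binding.

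Among themselves the factors did not follow 1 pattern across the hearts. Gata4, Gata5, Gata6 and Tbx20 were each highest in replicate 3 within both the KO and the WT group. Markers of cushion mesenchyme had the same top hearts, with list means, Tbx20 left out, of 8.79, 8.87 and 9.34 in KO replicates 1 to 3 and 8.77, 8.46 and 9.30 in WT replicates 1 to 3. Liver markers, skeletal muscle markers and the partner and related factors given below also had list means highest in replicate 3 of both groups. The other cell type lists did not. The part of cushion or other tissue in the factors' values was not tested. WT replicate 3 was the highest WT heart for 6 of the 10 factors. Hand2 and Gata5, both lowest in KO replicate 1, lay 0.48 below the WT mean there, in the heart whose erythroid mean was highest, and the part of blood cells in this was not tested. Nkx2-5, Mef2a and Mef2c kept their differences without that heart, at -0.16, 0.08 and 0.16.

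The spread within groups was of like size in KO and WT hearts. KO hearts had the larger SD for 7 of 10 factors and for 63.3% of all clusters. The median SD over the factors was 0.09 in KO and 0.10 in WT, against 0.14 and 0.10 over all clusters.

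**Figure D3:**
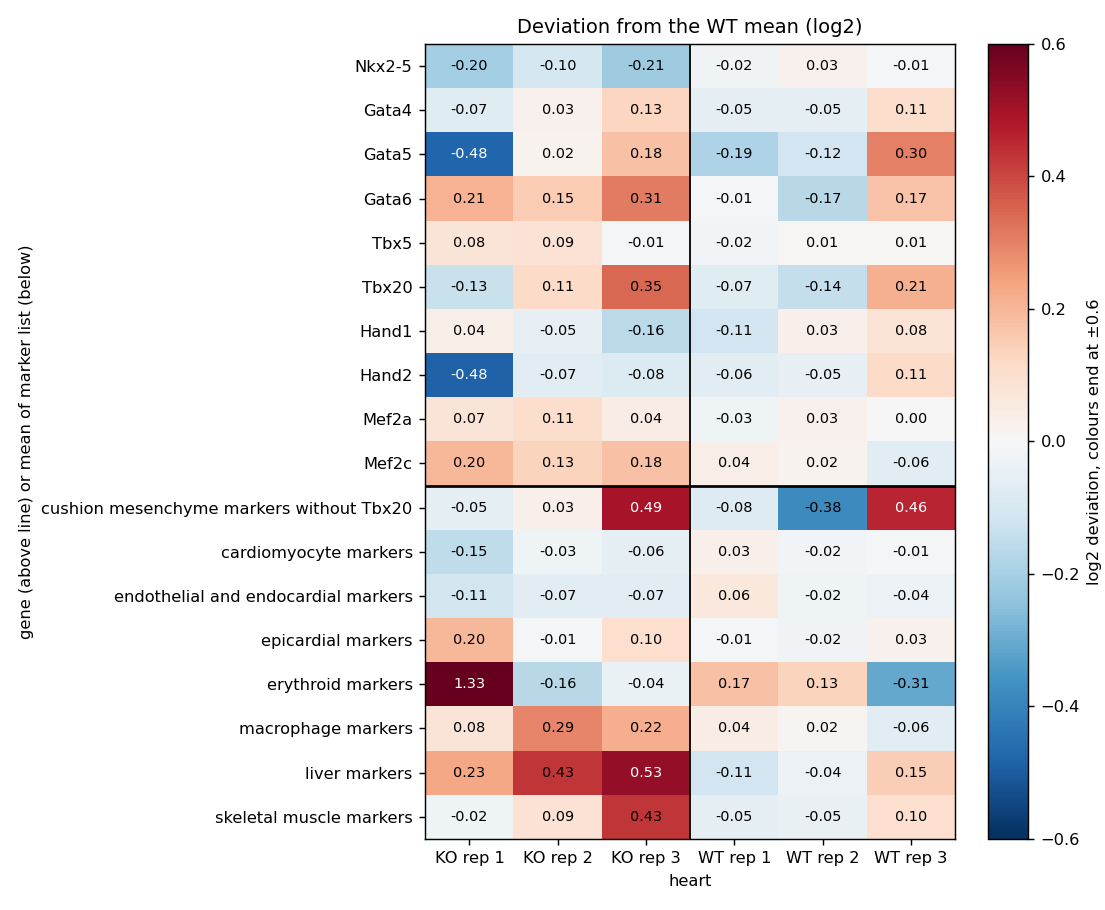
Deviation of each heart from the WT mean in log2 units, for the 10 factors (above the line) and for the means of marker lists (below it), with KO hearts in the left 3 columns and WT hearts in the right 3. Nkx2-5 is negative and Mef2a and Mef2c are positive in all KO hearts, and the erythroid row reaches 1.33 in KO replicate 1. The cushion, liver and skeletal muscle rows are highest in replicate 3 within both groups.

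Counts of cell type lists stand beside 46.5% of all clusters higher and 53.5% lower in KO. Cardiomyocyte markers were lower in KO for 9 of 12 members (median -0.05), with non-overlapping list means given above. Their median was -0.08 without KO replicate 2 and -0.09 without WT replicate 3. It was -0.04 without KO replicate 1 or without WT replicate 1, and -0.03 with array weights. The highest KO list mean, 12.777, lay just under the lowest WT list mean, 12.786. Endothelial and endocardial markers were lower for 9 of 12 (median -0.12), with list means of 9.55 to 9.59 in KO and 9.63 to 9.72 in WT hearts, and a median of -0.07 without KO replicate 1, -0.08 without WT replicate 1 and -0.06 with array weights. Cushion markers were higher for 9 of 12 (median 0.16) and epicardial markers for 9 of 12 (median 0.10). The cushion count was 7 of 12 without WT replicate 2 (median 0.03) or KO replicate 3 (0.04), and its median was 0.32 without WT replicate 3. The epicardial median was 0.05 without KO replicate 1 and 0.22 without KO replicate 2, and with array weights 6 of 12 were higher. Macrophage markers were higher for 11 of 12 (median 0.18) with list means of 6.97 to 7.18 in KO and 6.83 to 6.93 in WT hearts. Erythroid markers were higher for 9 of 9 (median 0.40), with list means of 8.47 to 9.97 in KO and 8.33 to 8.81 in WT hearts, but for 3 of 9 (median -0.09) without KO replicate 1 and 2 of 9 (-0.09) with array weights. The erythroid median was 0.71 without KO replicate 2 and 0.16 without WT replicate 3. Liver markers were higher for 7 of 9 (median 0.19), with list means of 5.78 to 6.07 in KO and 5.43 to 5.69 in WT and a median of 0.09 without KO replicate 2. Skeletal muscle markers were higher for 7 of 8 (median 0.09) and lung and foregut markers for 7 of 8 (median 0.11). Neural crest and neuron markers were higher for 5 of 6 (median 0.035). Over the alternatives 4 to 7, 5 to 7 and 1 to 5 were higher. In that order, list means were 5.57 to 6.03, 5.73 to 5.89 and 5.93 to 6.01 in KO hearts. In WT hearts they were 5.54 to 5.70, 5.61 to 5.83 and 5.92 to 6.10, all under the median of all clusters. None of these list members passed limma's test, and their part in the factors' differences was not tested.

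Genes with the profile most like that of Gata6 over the 6 hearts, by the root mean square gap between deviations from each gene's own mean, were Adamts10 (0.03), a matrix metalloproteinase relative, Itga9 (0.03), the integrin α9 chain, and Resf1 (0.04), out of 19932 genes compared. Their differences were 0.23, 0.22 and 0.24. Itga9 was 9.56, 9.41 and 9.60 in KO hearts, against 9.31, 9.16 and 9.44 in WT hearts, so that its groups overlapped, as those of Gata6 did.

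Partners and relatives of the factors were followed next. Of 28 listed genes 26 were measured, 12 higher and 14 lower in KO, where 46.5% of all clusters were higher and 53.5% lower. By limma, 0 passed the adjusted threshold and 2 had an unadjusted p under 0.05, against 5.93% of all clusters. The median difference of the list was -0.02 and ranged from -0.03 to 0.02 with 1 heart left out. It was above 0 without KO replicate 1, KO replicate 3 or WT replicate 3. Hey1, a Notch-driven repressor of atria, had the lowest p. It was 7.66, 7.40 and 7.56 in KO hearts and 7.25, 7.20 and 7.27 in WT hearts, so the groups did not overlap, with a difference of 0.30 ± 0.09 (log2, SE; limma adjusted p = 0.797). Irx4, a ventricular homeobox gene whose expression in mouse depends on Nkx2-5 and Hand2, was 9.30, 9.63 and 9.36 in KO hearts and 9.88, 9.61 and 9.65 in WT hearts. KO replicate 2 lay just above the lowest WT heart, and the difference was -0.28 ± 0.12 (log2, SE; adjusted p = 0.797). Prdm6, a smooth muscle repressor, differed by 0.31 ± 0.14 and Nfatc4, a calcineurin-driven factor that binds Gata4, by 0.48 ± 0.22, both with overlap.

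The following relatives and partners were named for their role, outside the choice by lowest p. Among T-box genes, Tbx1 differed by 0.13 ± 0.10, Tbx2 by 0.07 ± 0.19 and Tbx3, a repressor of chamber genes in the conduction system, by 0.23 ± 0.24. Tbx18, an epicardial and sinus horn gene, stood at -0.20 ± 0.21 and at 0.06 without KO replicate 1, and Tbx2 turned its sign without KO replicate 3 or WT replicate 2. Isl1, a second heart field gene, was 5.42, 5.67 and 6.52 in KO hearts and 5.03, 5.06 and 6.36 in WT hearts, again highest in replicate 3 of each group. Cofactors of the core factors had 95% intervals that include 0. Myocd, the partner of serum response factor, differed by -0.09 ± 0.08, Srf by -0.13 ± 0.12, the Mef2c target and methyltransferase gene Smyd1 by -0.12 ± 0.12, Hopx by -0.14 ± 0.10 and the GATA cofactor Zfpm2 by -0.03 ± 0.12. Hdac5 and Hdac9, class IIa deacetylases that bind MEF2 factors, differed by -0.01 ± 0.12 and -0.02 ± 0.11, and both of these and Zfpm2 turned their sign in at least 2 alternatives.

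Cardiac genes that the factors are known to bind or drive had more members lower than higher in KO. This list holds most of the cardiomyocyte markers and shares genes with the atrial and ventricular lists below. The counts of these lists are therefore not separate observations. Of 33 listed genes 31 were measured, 23 lower and 8 higher, with a median difference of -0.08. Of all clusters 53.5% were lower and 46.5% higher, and 42.8% of those at or above the median level were higher. By limma, 0 of the list passed the adjusted threshold and 3 had an unadjusted p under 0.05, against 5.93% of all clusters. Without KO replicate 1 the counts were also 23 and 8, with a median of -0.06, and with array weights the median was -0.04. In 4 of the 31 the KO hearts lay below all WT hearts (6.61% of all clusters) and in 1 above them (6.01%). The 4 with the lowest p were Acta1, skeletal α-actin, at -0.42 ± 0.10 (log2, SE), the ventricular light chain Myl3 at -0.21 ± 0.08, the coactivator gene Cited1 at -0.23 ± 0.09 and the atrial light chain Myl4 at -0.16 ± 0.08. Limma's adjusted p was 0.797 for each, and their groups did not overlap.

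Nppa, the atrial natriuretic peptide gene and a classic joint target of Nkx2-5, Gata4 and Tbx5, ran the other way. It was 13.35, 13.41 and 13.32 in KO hearts and 13.21, 13.31 and 13.07 in WT hearts, with all KO hearts above all WT hearts. The difference was 0.16 ± 0.09 (log2, SE; limma adjusted p = 0.797). Further targets are given for their role. Gja5, a connexin gene bound by Tbx5 and Nkx2-5, differed by -0.13 ± 0.13, the ventricular light chain Myl2 by -0.09 ± 0.09, Actc1 by -0.02 ± 0.08, Myh6 by 0.03 ± 0.08, Myh7 by -0.03 ± 0.08 and Tnnt2 by -0.07 ± 0.08. The differences of Nppb, 0.29 ± 0.30, and of Bmp10, a trabecular growth factor that is higher in mouse hearts lacking ventricular Nkx2-5, 0.28 ± 0.27, became -0.07 and -0.06 without KO replicate 1.

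Chamber genes were counted by chamber, with 0 past the threshold in either list. Of 10 atrial genes 7 were higher and 3 lower in KO (median 0.12). Of 10 ventricular genes 3 were higher and 7 lower (median -0.09). Over all clusters 46.5% were higher and 53.5% lower, and 42.8% of those at or above the median level were higher. Both lists share genes with the target list above, such as Nppa and Myl3. The atrial list had 6 higher and 4 lower without KO replicate 1, 5 and 5 without KO replicate 3 (median 0.003) and 4 and 6 without WT replicate 2 (median -0.02), so that its majority turned with 1 WT heart. The ventricular median was -0.05 without KO replicate 1 and -0.03 with array weights. Over the alternatives the atrial median ranged from -0.02 to 0.15 and the ventricular median from -0.11 to -0.03. Sln, which encodes the atrial calcium pump inhibitor sarcolipin, was 5.41, 5.35 and 5.47 in KO hearts, against 4.86, 4.73 and 5.06 in WT hearts. Its groups lay apart, with a difference of 0.53 ± 0.11 (log2, SE; limma adjusted p = 0.797) at a level under the median of all clusters. Myl4 and Myl1 were lower among the atrial genes, at -0.16 and -0.32, and Myl1 stood at -0.08 without KO replicate 1. In the ventricular list Mpped2 differed by -0.12 ± 0.09 and Hey2, a ventricular repressor related to Hey1, by 0.16 ± 0.13, which was 0.06 without KO replicate 1.

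**Figure D4:**
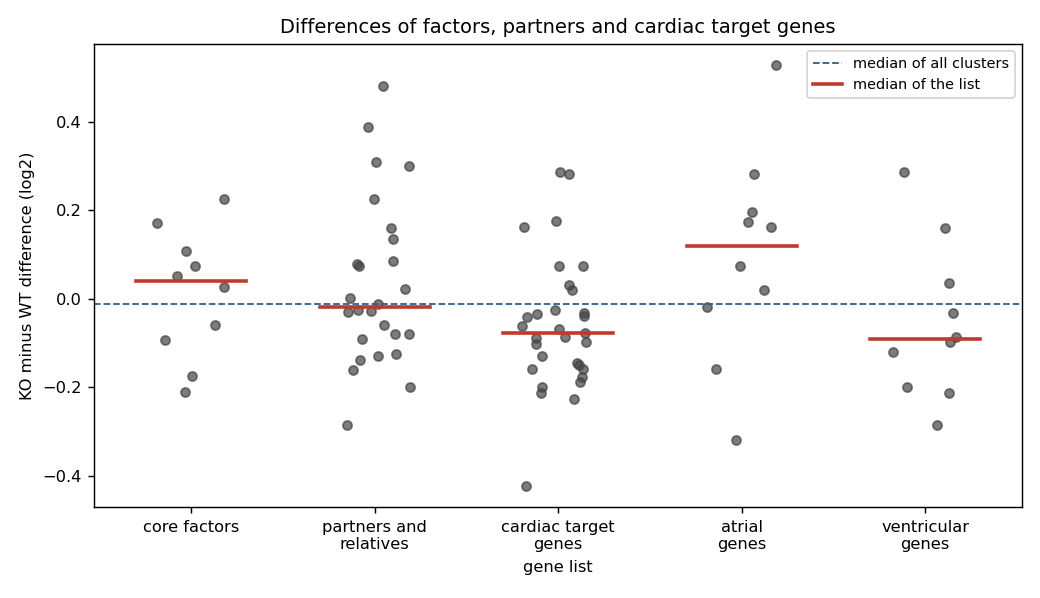
KO minus WT differences (log2) of single genes in the core factors, their partners and relatives, their cardiac target genes, and atrial and ventricular genes, with list medians (red) and the median of all clusters (dashed blue, -0.01). Points are spread sideways for legibility. The core factors lie between -0.21 and 0.22, and the lists differ in median by less than the range of their members.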

How the data were processed

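The deposited values are log2 signals made by the authors with RMA (background correction, a common distribution over arrays and 1 summary per transcript cluster), per the submitters' processing notes, and the log2 scale follows from their range. The labels state neither RMA's version nor a filter. RMA compresses differences of dim clusters, and the number of arrays limits precision. Symbols came from a platform annotation, updated by Entrez identifier (21686 of 21776 single-symbol clusters), and the brightest cluster stands for a gene.

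KO was compared with WT by limma 3.58.1 in R 4.3.3 (lmFit and eBayes, two-sided, no covariate) over all 28767 clusters, with Benjamini-Hochberg adjustment over them and a threshold of 0.05, and the code was tested on simulated data. P-values cover the spread between the samples, which the design text calls biological replicates without saying whether each was 1 animal or a pool. The members and all lists were chosen with earlier results of these data known. All 10 members are named, with up to 4 genes of lowest p for the partner, target, atrial and ventricular lists. Also named are the 3 profiles most like that of the member with the largest difference, Itgb1, and genes chosen for their role. The cell type lists are given by counts, medians and list means, without their genes of lowest p. Groups share replicate numbers, but same-numbered hearts did not deviate together (correlations of deviations from group means of -0.04, -0.03 and -0.06), so the main fit has no block. The alternatives tried were leaving out dim clusters, keeping 1 cluster per gene, averaging a gene's clusters (without a p), another quantile normalization, cyclic loess and median centring. A trended robust variance, array weights, the replicate block and leaving out each heart were also tried. The array weights were 0.35, 2.98 and 0.54 for KO replicates 1 to 3. For WT replicates 1 to 3 they were 1.30, 1.69 and 0.81. Values with array weights therefore rest mostly on KO replicate 2 for the KO group. Promoter sequences are RefSeq's, GRCm38.p6.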

Additional observations from a re-analysis of the deposited data

How the results depend on the processing

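The alternatives gave 150 results (15 for each of 10 factors), of which 145 kept the sign of the difference. Leaving out dim clusters, keeping 1 cluster per gene, a trended robust variance, the replicate block and averaging clusters cannot change a member's difference. The signs under these settings were therefore fixed in advance. Averaging clusters gave no p, and no member passed the threshold in any other alternative. The 5 that turned were Gata5 with array weights (0.0497) and without KO replicate 1 (0.10) or WT replicate 3 (0.06), and Gata4 (-0.0225) and Tbx20 (-0.0102) without KO replicate 3. The cause was not tested. With 1 heart left out, Gata5 ranged from -0.2275 to 0.10, Gata4 from -0.0225 to 0.0808 and Tbx20 from -0.0102 to 0.2293. The median difference of the 10 ranged from -0.01 to 0.08 and the number higher in KO from 4 to 7 when 1 heart was left out, with the lowest median without KO replicate 3 and the highest without KO replicate 1. Groups not overlapping numbered 2 after quantile normalization again or cyclic loess (13.5% of all clusters) and 5 with array medians centred (12.0%), in place of 4 (12.6%). With 1 heart left out they numbered 4 to 5, where 20.0% (without WT replicate 2) to 28.1% (without KO replicate 3) of all clusters did not overlap. Over all clusters, the calls ranged from 0 to 1 with 1 heart left out, the 1 without KO replicate 1, and were 0 in the other alternatives. With the replicate block, the number of calls was 0 and the median of the 10 factors 0.04. Each member has 1 cluster, so that averaging clusters changed nothing.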
